A study of Mus musculus with 5 samples.

Results

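Mouse embryos at the 2-cell stage were examined for transcripts of 9 genes of the double-strand break response. The genes encode the apical kinases Atm and Atr, the effector kinases Chek1 and Chek2, the recombination factors Brca1 and Brca2, and the 3 parts of the DNA-dependent protein kinase, which are Prkdc, Xrcc5 and Xrcc6. The set of genes was chosen with earlier results of these data known. Its members were found by gene symbol, and all 9 were present among the 32285 symbols of the deposited expression table. The study measured RNA in 2 control libraries and 3 libraries exposed to PNMC, an abbreviation that the labels do not spell out. Embryos of both groups came from fertilisation in vitro of eggs from hormone-stimulated females, aged 6 to 9 weeks, with sperm of males aged 12 to 16 weeks. The labels name neither the mouse strain nor any genetic alteration. Fertilised eggs with a pair of pronuclei were then cultured for 24 h in KSOM, an embryo culture medium. It held 25 nM PNMC in the exposed group and an equal volume of the solvent DMSO in the controls. The labels leave unsaid how many embryos went into a library and whether each had its own culture, so p-values here cover only the spread between libraries, which may be technical.

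A double-strand break can be mended along different routes. In end joining, the Ku heterodimer of XRCC5 (Ku80) and XRCC6 (Ku70) clasps the broken end and recruits the catalytic subunit encoded by Prkdc. In homologous recombination, BRCA1 helps to start the trimming of the end, and BRCA2 acts after it, on the exposed strand. Signalling runs in parallel: ATM answers to the break itself and activates CHK2, while ATR answers to exposed single-stranded DNA and activates CHK1, and both branches can hold the cell before mitosis. ATM, ATR and the Prkdc product belong to 1 family of large kinases. A 2-cell mouse embryo holds RNA stored by the oocyte together with RNA of its own newly active genome, and a library of whole embryos does not separate the 2 sources.

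Values are a normalised signal per gene whose unit is not stated, and the read depth behind it is unknown. The signal summed to between 446010 and 454548 per library. Control library 2 listed 18595 genes above 0, and the other 4 libraries listed 17408 to 17635. All 10 markers of the oocyte and 2-cell embryo were present, with a summed signal of 8787 to 9261 in controls and 8970 to 9426 after PNMC. Of 9 cumulus cell markers, Ptx3, Amh and Foxl2 were at 0 throughout, and the list summed to 3.54 to 6.47 in controls and 2.01 to 3.12 after PNMC. Of 7 sperm markers, Prm1, Tnp2 and Smcp were at 0 throughout, and the list summed to 4.22 to 4.58 in controls and 4.54 to 6.89 after PNMC. Most of that sum was Prm2, at 3.91 and 4.02 in the controls and 5.19, 5.79 and 4.54 after PNMC. Of 6 blood markers, Hbb-bt was at 0 throughout, and the list summed to 9.81 to 15.7 in controls and 6.68 to 10.2 after PNMC. Most of that sum was Hba-a1, at 4.57 to 8.29 over all libraries. Hba-a2 and Cd52 reached at most 4.53 and 3.19, and Hbb-bs and Ptprc at most 0.342 and 0.0412. Of 5 oviduct markers, Pax8 was at 0 throughout, and the list summed to 56.9 to 58.1 in controls and 45.8 to 86.3 after PNMC. Nearly all of that sum was Epcam, at 43.6 to 82.9 over all libraries. Ovgp1, Foxj1 and Krt8 reached at most 1.25, 1.37 and 4.28. The part of these cells' RNA in the results below was not tested. In libraries of whole embryos, fewer cells of a kind and less RNA per cell cannot be told apart.

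Promoter sequences, 250 bases before to 50 bases after the start site, were taken from RefSeq on build GRCm38.p6 for 8 of the genes. The submitters' processing notes name build GRCm39, so these coordinates hold for the RefSeq table only. Prkdc was not among the 8. The E2F-type motif TTTCCCGC, the letters of a site for the factors that drive S-phase genes, was found on the reverse strand in the promoters of Chek2, Brca2 and Xrcc6. Both strands were searched. It was found in 1.07% of all 32851 promoters in the table and in 1.86% of the 12176 promoters whose gene was tested here. The 3 matches are shown because they are the rarest shared letters found, with the motif in capitals as read on the gene's own strand. They lie at chr5:110839805-110839864 (plus strand, Chek2), chr5:150522427-150522486 (plus strand, Brca2) and chr15:82016297-82016356 (plus strand, Xrcc6).
Chek2: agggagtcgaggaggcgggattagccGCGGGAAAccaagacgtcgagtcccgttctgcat
Brca2: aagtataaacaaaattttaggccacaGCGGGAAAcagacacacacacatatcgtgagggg
Xrcc6: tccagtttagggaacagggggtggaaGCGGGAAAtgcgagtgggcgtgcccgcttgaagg

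The match began 152 bases before the start site in Chek2, 168 before it in Brca2 and 46 before it in Xrcc6. A second E2F-type spelling, TTTGGCGC, was found in none of the 8 promoters and in 0.961% of the tested genes' promoters. The Chek1 promoter ended in a related run of letters, GGCGGGAA, which was picked out after the sequence had been seen and which shares letters with TTTCCCGC read on the other strand. The full run GGCGGGAA was found in 3.94% of the tested genes' promoters and in no other of the 8. Its shared letters, GCGGGAA, also lay in the Atm promoter and within the matches of Chek2, Brca2 and Xrcc6. The Chek1 stretch lies at chr9:36726609-36726642 (minus strand) and is shown because Chek1 had the highest signal of the 9 genes.
Chek1: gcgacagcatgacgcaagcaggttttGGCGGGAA

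The motif CCAAT was found in 5 of the 8 promoters, those of Xrcc5, Chek2, Atm, Brca1 and Xrcc6, against 39.0% of the tested genes' promoters. TTTGAA was found in none of the 8, against 13.1%. None of these motifs overlapped another in the 8 promoters. The ratio of observed to expected CpG ran from 0.53 in Xrcc5 to 1.05 in Brca2, with a median of 0.93 against 0.73 over the tested genes' promoters. A match of letters is a description of the window and says nothing of binding.

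Chek1, the kinase that ATR activates, gave the highest signal. Control libraries 1 and 2 stood at 117 and 121, and PNMC libraries 1, 2 and 3 at 130.3, 128 and 152. All 3 PNMC libraries lay above both controls, and PNMC library 3 lay highest. The group means were 119 ± 3.16 (SD, n = 2) and 137 ± 13.2 (SD, n = 3). On the log2(value + 1) scale, used for the changes of single genes unless stated otherwise, the difference was 0.19 (95% interval -0.11 to 0.49). It did not pass limma's moderated test across all genes (unadjusted p = 0.20, adjusted p = 0.993), and it was 0.11 without PNMC library 3. Such a lack of overlap with PNMC higher was seen in 7.97% of the 12734 genes tested, and Chek1 was the 1 gene of the 9 to show it.

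Chek2, the kinase that ATM activates, pointed the other way in its means. Controls gave signals of 21.8 and 15.0, and PNMC libraries gave 11.4, 18.1 and 11.4. PNMC library 2 lay between both controls, and the other PNMC libraries lay below them. Means were 18.4 ± 4.82 (SD, n = 2) and 13.6 ± 3.88 (SD, n = 3), a difference of -0.42 (95% interval -0.996 to 0.15) and no gene of the 9 had a smaller limma p (unadjusted p = 0.139, adjusted p = 0.993). The size rested on single libraries: the difference was -0.16 without control library 1 and -0.68 without control library 2. Without PNMC library 2 it was -0.63, with an unadjusted limma p of 0.0358 and an adjusted p of 0.812. In that fit, 743 of 12374 tested genes had an unadjusted p under 0.05.

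The signal of Atm, the kinase that answers to breaks, was 3.14 and 2.93 in the controls and 2.79, 5.61 and 2.31 after PNMC. PNMC library 2 stood well above the other libraries, and the remaining PNMC libraries lay below both controls. The difference of 0.11 (95% interval -0.68 to 0.91) became -0.19 without PNMC library 2. Atr, the kinase that answers to single-stranded DNA, had a signal of 1.04 and 1.62 in the controls and 1.79, 1.44 and 0.605 after PNMC. Both groups overlapped, and PNMC libraries held both the highest and the lowest value. Its difference was -0.06 (95% interval -0.95 to 0.83), becoming 0.18 without PNMC library 3 and 0.12 without control library 2.

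**Figure D1:**
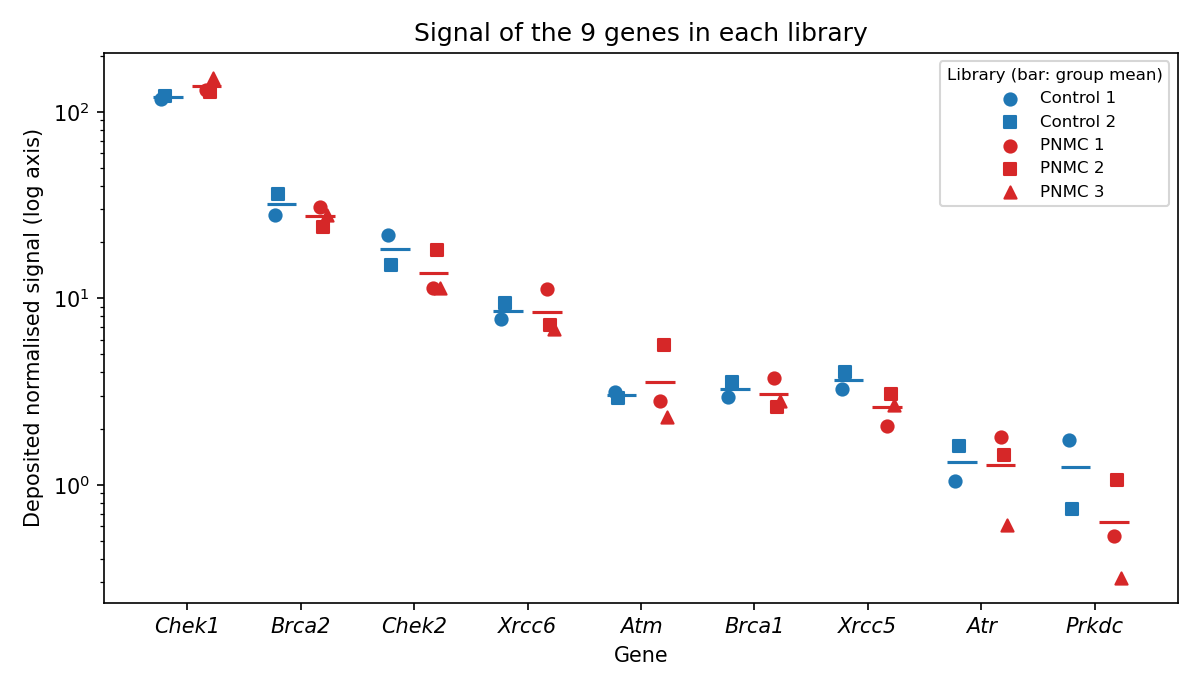
Deposited normalised signal of the 9 genes (log axis) in each of the 2 control libraries (blue) and 3 PNMC libraries (red), with a bar at each group mean. Chek1 lies highest, between 117 and 152, and the 3 PNMC values of Chek1 lie above both controls, whereas the groups overlap for all other genes but Xrcc5.

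Brca2, which acts on the trimmed end, had the second highest signal. It was 27.8 and 36.1 in the controls and 31.0, 24.0 and 28.1 after PNMC. The 3 PNMC values lay below control library 2, but 2 of them lay above control library 1. Means were 31.9 ± 5.86 (SD, n = 2) and 27.7 ± 3.50 (SD, n = 3), a difference of -0.19 (95% interval -0.63 to 0.25, limma adjusted p = 0.993). It was -0.38 without control library 1, -0.012 without control library 2 and -0.099 without PNMC library 2. Brca1, which acts at end trimming and as a ubiquitin ligase with BARD1, had a signal of 2.96 and 3.58 in the controls and 3.72, 2.62 and 2.81 after PNMC. The PNMC libraries lay on either side of both controls, and the difference was -0.08 (95% interval -0.80 to 0.64), which became 0.02 without control library 2.

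Among the genes of the DNA-dependent protein kinase, the groups were apart for Xrcc5 and overlapped for Xrcc6 and Prkdc. Xrcc5, the Ku80 subunit, had a signal of 3.24 and 3.998 in the controls and 2.07, 3.05 and 2.68 after PNMC. All 3 PNMC libraries lay below both controls, by a narrow margin for PNMC library 2. Means were 3.62 ± 0.534 (SD, n = 2) and 2.60 ± 0.493 (SD, n = 3), a difference of -0.36 (95% interval -1.09 to 0.36; limma unadjusted p = 0.299, adjusted p = 0.993). A lack of overlap with PNMC lower was seen in 11.9% of the tested genes, and Xrcc5 was the 1 gene of the 9 to show it.

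Xrcc6, the Ku70 subunit, had a signal of 7.73 and 9.43 in the controls and 11.2, 7.19 and 6.84 after PNMC. PNMC library 1 lay highest and the other PNMC libraries lowest, and the difference was -0.05 (95% interval -0.66 to 0.56). It was 0.02 under quantile normalisation and 0.03 after median scaling, so its direction depended on the scaling. Prkdc, the catalytic subunit, had the lowest mean signal as deposited, at 1.74 and 0.744 in the controls and 0.530, 1.05 and 0.318 after PNMC. Control library 1 lay highest, and control library 2 lay within the PNMC range. Its difference was -0.44 (95% interval -1.39 to 0.50), and it was -0.77 without control library 2. With a pseudocount of 0.1 in place of 1, which bears most on low genes, it was -0.89.

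None of the 9 genes changed at an adjusted limma p under 0.05, a threshold that 0 of the 12734 tested genes passed (0%). None passed at an unadjusted p under 0.05 either, where 636 genes, or 4.99%, did, 220 of them higher and 416 lower after PNMC. Without a variance trend and robust variances limma gave 0 and 745 genes. All 9 genes had passed the filter on low values, which asked for 2 or more of the 5 libraries to reach a signal of 1. Of their differences, 2 were above 0 and 7 below, with a median of -0.08 against -0.05 over all tested genes. Quantile normalisation turned that division to 5 above and 4 below, with a median of 0.01, and leaving out control library 2 gave 5 above and 4 below, with a median of 0.02. The intervals lay within 1 unit of log2 on either side of 0 for 7 of the 9 genes, all but Xrcc5 and Prkdc. The share was 61.4% of all tested genes. On the log2 scale the interval was narrowest for Chek1 and widest for Prkdc. In linear terms they ran from 0.924 to 1.41 and from 0.381 to 1.42. These ratios refer to the signal plus 1, which understates changes of low genes.

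**Figure D2:**
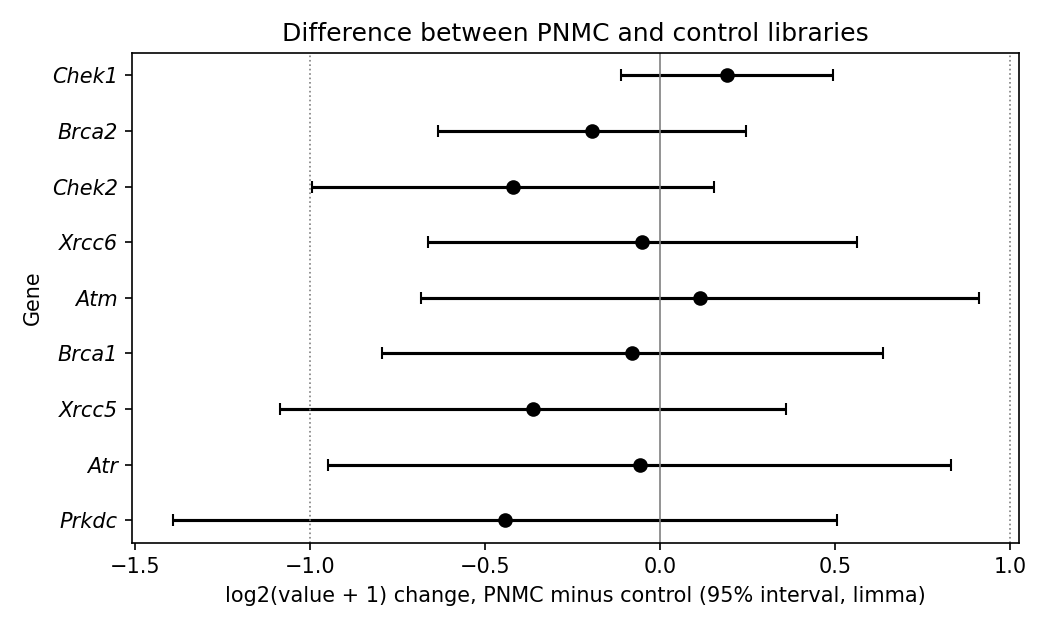
Difference between PNMC and control libraries for each of the 9 genes on the log2(value + 1) scale, with limma's 95% interval, ordered by signal. All 9 intervals include 0, and those of Xrcc5 (-1.09 to 0.36) and Prkdc (-1.39 to 0.50) reach past -1, the left dotted line.

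The order of the signals could be read only with a caution, since it is not stated whether the deposited values are already divided by gene length. As deposited, the means over the 5 libraries fell from Chek1 (129.6) through Brca2 (29.4), Chek2 (15.5) and Xrcc6 (8.47), and no library of one overlapped any library of the next. Atm (3.36), Brca1 (3.14) and Xrcc5 (3.01) overlapped with each other, and so did Atr (1.30) and Prkdc (0.877). Dividing each value by the longest GENCODE M21 transcript of the gene gave the order that would hold if the values were not per length. Transcripts ran from 2276 bases in Chek2 to 12647 in Prkdc. Chek1 stayed first, at 34.1 per kb, and Prkdc stayed last, at 0.0693 per kb and overlapping with Atr at 0.160. Chek2 then stood second (6.82 per kb), while Brca2 (2.74 per kb) and Xrcc6 (2.57 per kb) overlapped. Chek1 thus lay above each of the other 8 genes in all libraries on both scales.

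Partner genes were also compared as ratios of deposited signal within a library, with nothing added to the signal before the log. Such ratios do not depend on scaling that applies a single factor to a whole library. Whether the deposited values were scaled in that way is not stated. The Chek1 to Chek2 ratio was 5.36 and 8.09 in the controls and 11.5, 7.07 and 13.4 after PNMC. PNMC library 2 lay between both controls, and the other PNMC libraries lay above them. The log2 ratio averaged 2.72 ± 0.42 (SD, n = 2) and 3.36 ± 0.48 (SD, n = 3), a difference of 0.64 (two-sided exact permutation p = 0.40). It was 0.34 without control library 1 and 0.94 without control library 2. With 10 ways to regroup 2 and 3 libraries, the smallest p that this test allows is 0.20, since it doubles the smaller one-sided p. Adjusted over the 5 ratios examined, every p was 0.60.

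The Ku ratio of Xrcc6 to Xrcc5 was close to 1 value in 4 libraries and stood apart in PNMC library 1. Controls had ratios of 2.38 and 2.36, and PNMC libraries had 5.37, 2.35 and 2.55. The log2 difference of 0.43 fell to 0.05 without PNMC library 1 (two-sided exact permutation p = 0.60 with all libraries). PNMC library 1 held both the highest Xrcc6 signal and the lowest Xrcc5 signal. The Brca1 to Brca2 ratio varied least, at 0.106 and 0.0991 in the controls and 0.120, 0.109 and 0.1001 after PNMC, with a log2 difference of 0.09 (exact permutation p = 0.40). The Atm to Atr ratio ran from 1.56 in PNMC library 1 to 3.90 in PNMC library 2, with controls at 3.01 and 1.82. The Prkdc to Xrcc5 ratio ran from 0.118 in PNMC library 3 to 0.536 in control library 1. For both of these the groups overlapped (exact permutation p = 0.60 each).

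**Figure D3:**
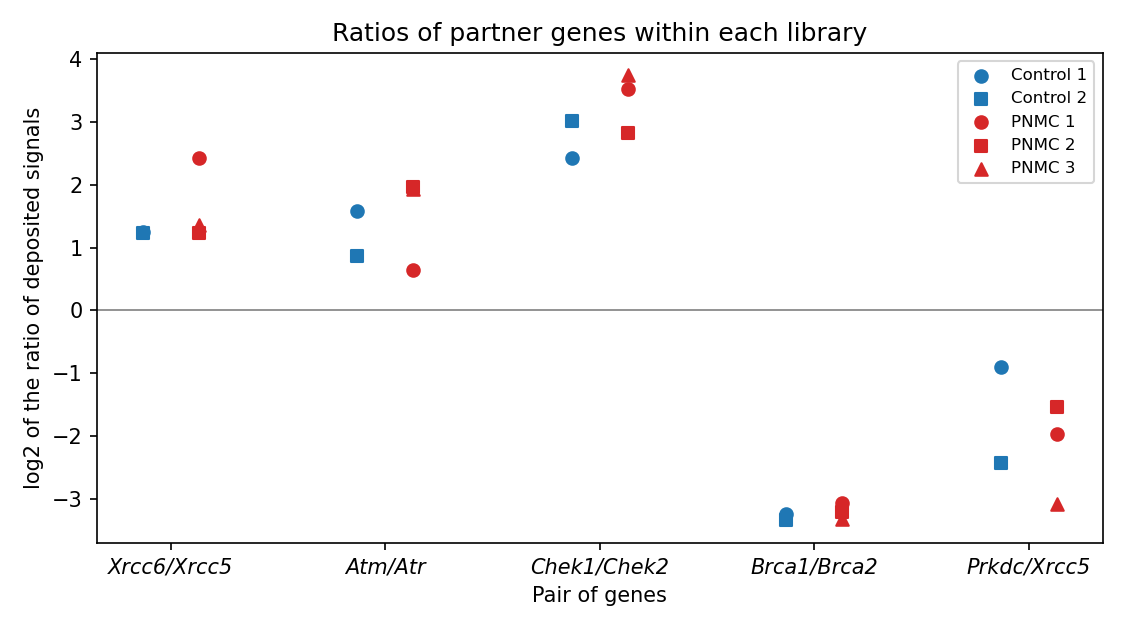
Log2 ratio of the deposited signals of 5 pairs of partner genes in each control library (blue) and PNMC library (red). The Ku ratio Xrcc6/Xrcc5 lies between 1.24 and 1.35 in 4 libraries and at 2.43 in PNMC library 1, and the groups overlap in all 5 pairs.

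The position of the genes bears on how their signal can be read, since Smart-seq2 libraries keep no strand information. In GENCODE M21, exons of Xrcc6 overlapped those of Desi1, a protein-coding gene on the opposite strand. Desi1 had a signal of 17.6 and 27.4 in the controls and 27.2, 19.2 and 14.7 after PNMC, above Xrcc6 in every library. Exons of Atr overlapped the antisense transcripts Gm16794, at 0.794 to 1.33, and 1700065D16Rik, at 0 to 0.116, as well as the small RNA gene Gm24004. Exons of Brca2 overlapped the antisense transcript Gm42529, which had at most 0.0924. Reads of these pairs cannot be told apart by strand, so the values of Xrcc6 and Atr are uncertain for that reason. The same limit holds for the ratios of Xrcc6 to Xrcc5 and of Atm to Atr above. No overlapping exon was annotated for Chek1, Chek2, Atm, Brca1, Prkdc or Xrcc5.

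A head-to-head neighbour, a protein-coding gene on the other strand whose start lay within 1000 bases, was annotated for 4 of the 9 genes, against 16.5% of 11287 tested protein-coding genes. This search was chosen after the expression values were seen. Atm faces Npat, a regulator of histone genes, with a mean signal of 18.0 ± 1.29 over the 2 controls and 19.0 ± 3.36 over the 3 PNMC libraries (SD). Prkdc faces Mcm4, a subunit of the replicative helicase, at 44.5 ± 13.9 and 42.2 ± 6.29. Brca1 faces Nbr1, an autophagy receptor, at 40.1 ± 0.815 and 38.2 ± 5.54, and Chek2 faces Hscb, a chaperone of iron-sulfur cluster assembly, at 38.8 ± 5.52 and 32.9 ± 4.89. In all 4 pairs the neighbour's signal as deposited lay above that of the repair gene in every library. None of the 4 neighbours passed limma's test (adjusted p = 0.993 each), and the PNMC library 2 value of Atm had no counterpart in Npat, at 19.8 there against 15.3 to 21.8 in the other libraries.

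The gene most like each of the 9, by the root mean square difference of log2 signal over the 5 libraries, was taken from the tested genes. It was Naa50 for Chek1 (0.0464), Tax1bp3 for Brca2 (0.0563) and Mrpl41 for Chek2 (0.0859). For Atm it was Krtcap3 (0.0857), for Brca1 Rab21 (0.0979) and for Atr Nap1l3 (0.102). For Xrcc6 it was Txndc12 (0.111), for Xrcc5 Tchh (0.116) and for Prkdc Aph1b (0.133). With 5 libraries such likeness was common: between 23 genes (for Prkdc) and 213 genes (for Brca2) lay within 0.25 of each of the 9.

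Other genes of the break response were examined in 5 lists of 78 genes, of which 74 passed the filter. None changed at an adjusted limma p under 0.05, and 5 of the 74 passed at an unadjusted p under 0.05, where 4.99% of all tested genes did. Of these 5, 3 were higher and 2 lower after PNMC, 1 in each list, and a count so near the background is not a result about the lists. Among the 19 genes that sense breaks and mark chromatin, 6 differences were above 0 and 13 below, with a median of -0.10. Trp53bp1, the 53BP1 protein that shields broken ends, had a signal of 41.3 and 27.1 in the controls and 46.4, 47.6 and 43.8 after PNMC. All 3 PNMC libraries lay above both controls, as in 7.97% of all tested genes, with a difference of 0.44 (limma unadjusted p = 0.0448, adjusted p = 0.986). Rnf8, a ubiquitin ligase that acts upstream of 53BP1, averaged 30.7 ± 13.7 (SD, n = 2) and 43.4 ± 8.11 (SD, n = 3), and its groups overlapped.

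Among the 12 end-joining factors, 10 were tested, of which 5 differences were above 0 and 5 below, with a median of -0.05. Polm, a gap-filling polymerase, had a signal of 10.5 and 12.0 in the controls and 6.98, 7.53 and 7.65 after PNMC, a difference of -0.55 (limma unadjusted p = 0.0494, adjusted p = 0.986). Polq, the polymerase of microhomology-mediated joining, averaged 3.60 ± 0.143 (SD, n = 2) and 1.82 ± 1.09 (SD, n = 3). In both genes all 3 PNMC libraries lay below both controls.

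Among the 20 homologous recombination factors, 19 were tested, of which 10 differences were above 0 and 9 below, with a median of 0.00342. Dna2, a nuclease of long-range end trimming, had a signal of 11.9 and 8.80 in the controls and 6.54, 7.18 and 4.59 after PNMC. All 3 PNMC libraries lay below both controls, as in 11.9% of all tested genes, with a difference of -0.68 (limma unadjusted p = 0.0334, adjusted p = 0.967). Fanci, of the Fanconi pathway of crosslink repair, averaged 3.48 ± 2.35 (SD, n = 2) and 5.73 ± 1.74 (SD, n = 3), with overlapping groups.

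Among the 14 genes of ATR activation and fork protection, 7 differences were above 0 and 7 below, with a median of 0.02. The members with the smallest p were both subunits of RPA, the protein that coats single-stranded DNA and draws ATR to it. Rpa3 had a signal of 17.3 and 24.2 in the controls and 31.3, 33.1 and 25.2 after PNMC, a difference of 0.51 (limma unadjusted p = 0.035, adjusted p = 0.967). Rpa1 had a signal of 19.5 and 21.0 in the controls and 28.9, 21.0 and 30.2 after PNMC, a difference of 0.37 (limma unadjusted p = 0.114, adjusted p = 0.993). All 3 PNMC libraries lay above both controls in Rpa3 and in Rpa1, narrowly for Rpa1 in PNMC library 2. The same was seen in 7.97% of all tested genes, and these 2 were picked for their small p. The remaining subunit, Rpa2, which was named after its values were seen, averaged 62.8 ± 17.7 (SD, n = 2) and 57.2 ± 8.60 (SD, n = 3).

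Among the 13 checkpoint effectors, 12 were tested, of which 5 differences were above 0 and 7 below, with a median of -0.10. Mdm4, which holds the transcription factor p53 in check, had the smallest p of the 74 genes. Its signal was 413 and 384 in the controls and 641, 461 and 613 after PNMC. All 3 PNMC libraries lay above both controls, as in 7.97% of all tested genes. The difference was 0.51 (SE 0.137, 95% interval 0.21 to 0.80; limma unadjusted p = 0.00264, adjusted p = 0.866). Cdc25b, a phosphatase that checkpoint kinases oppose and that opens the way to mitosis, averaged 30.9 ± 4.19 (SD, n = 2) and 24.4 ± 6.17 (SD, n = 3), with overlapping groups. Over the 5 lists together, 8 genes had all PNMC libraries above both controls and 9 had all below, of 74, where the share of all tested genes was 7.97% and 11.9%.

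**Figure D4:**
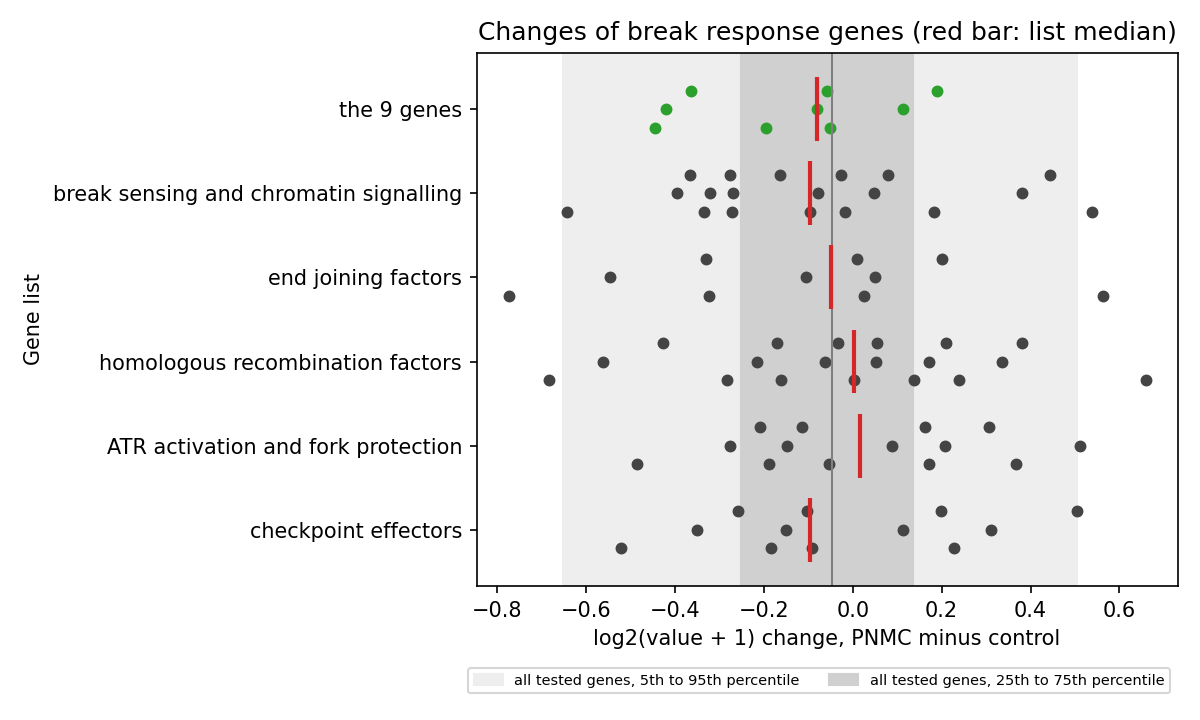
Difference between PNMC and control libraries on the log2(value + 1) scale for the 9 genes (green) and for the tested genes of 5 lists of the break response (dark points), with each list's median as a red bar. The grey bands show where all 12734 tested genes lie, and the list medians lie between -0.10 and 0.02, beside a median of -0.05 for all tested genes.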

How the data were processed

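The authors deposited 1 table with a normalised signal for each gene symbol and library. Per the submitters' processing notes, Trimmomatic, HISAT2 2.0.5, HTSeq, DESeq2 1.16.1 and build GRCm39 were named. Neither the annotation nor the tool that made the values is stated. Low values showed no steps of whole reads, so a count test was not possible. Columns were assigned by sample title. Genes with a signal of at least 1 in at least 2 of 5 libraries were kept (12734; 19551 were removed), transformed to log2(value + 1) and compared by limma's moderated test with trend and robust variances (limma 3.58.1, R 4.3.3), with Benjamini-Hochberg adjustment over all tested genes at 0.05. Ratios were compared by exact permutation (scipy 1.17.1). The procedure was also run on simulated data, with changes planted only in genes of higher signal and larger than those seen in the 9 genes. It therefore does not show what could be detected in the low genes among the 9. Named genes were the 9 members, the 2 of smallest p in every list and the gene most like each member. Members and lists were chosen with earlier results of these data known. Features of the encoded proteins were not analysed here. Tried instead were a smaller pseudocount (0.1), no filter, a stricter minimum (10), quantile normalisation, median scaling, limma without trend and robust variances, each library left out, and the replicate number as a block. For ratios, a pseudocount of 1 was added after the data were seen.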

Additional observations from a re-analysis of the deposited data

How the results depend on the processing

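No gene of the 9 passed an adjusted limma p of 0.05 in any of the 13 fits, and the lowest adjusted p was 0.812. Without 1 library the count of all genes past that threshold ran from 0 to 1, the latter without PNMC library 1, and the count past the unadjusted one from 509 to 743, and with a minimum of 10 the latter was 210. The count of the 9 past the unadjusted threshold ran from 0 to 1, which was Chek2 without PNMC library 2. That fit held 8 of the 9 genes, and 743 of its 12374 tested genes passed the same threshold. Chek1, Chek2, Brca2, Prkdc and Xrcc5 kept their direction in every fit that held them, but not their size. With 1 library left out, the difference ran from 0.1127 to 0.2361 for Chek1, -0.6763 to -0.1649 for Chek2, -0.3765 to -0.01194 for Brca2, -0.7698 to -0.3018 for Prkdc and -0.4815 to -0.2455 for Xrcc5. Prkdc was not fitted without control library 1 or PNMC library 2, and a minimum of 10 left Chek1, Chek2 and Brca2 alone. With 1 library left out, the difference ran from -0.19 to 0.31 for Atm, -0.24 to 0.18 for Atr, -0.20 to 0.0247 for Brca1 and -0.25 to 0.0765 for Xrcc6. Quantile normalisation gave 0.0339 for Atr, 0.0117 for Brca1 and 0.0234 for Xrcc6, and median scaling 0.0261 for Xrcc6; the cause was not tested.

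The labels do not say that a replicate number marks a shared batch, and the deviations of same-numbered libraries correlated at -0.0585 and -0.0433, so the numbers were not read as pairs. With a replicate block, PNMC library 3 has no partner and drops out of the comparison, and Atr was at 0.18 and Xrcc6 at 0.0641. The count past the unadjusted threshold was 544 with the block.

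The median of the 9 genes ran from -0.25 to 0.0247 with 1 library left out. Medians did so from -0.27 to -0.00900 for break sensing, -0.19 to -0.0208 for end joining, -0.0296 to 0.20 for ATR activation and -0.15 to 0.0169 for effectors. Median scaling gave -0.0238 for break sensing and 0.0876 for recombination, and quantile normalisation -0.0159 for break sensing. A minimum of 10 gave -0.022 for break sensing, -0.22 for end joining and 0.17 for ATR activation, where fewer genes were left. Of all genes past the unadjusted threshold, 34.6% were higher after PNMC, 50.6% under quantile normalisation and 57.6% after median scaling. With 1 library left out, the log2 difference ran from -0.0764 to 0.72 for the Atm to Atr ratio, -1.29 to 0.23 for Prkdc to Xrcc5, 0.3435 to 0.9374 for Chek1 to Chek2, 0.02479 to 0.1561 for Brca1 to Brca2 and 0.04851 to 0.6436 for Xrcc6 to Xrcc5. A pseudocount of 1 in the ratio moved Prkdc to Xrcc5 from -0.53 to -0.081 and Atm to Atr from 0.29 to 0.17. With it, Chek1 to Chek2 was at 0.61, Brca1 to Brca2 at 0.11 and Xrcc6 to Xrcc5 at 0.31. Depth is unknown, and the wide intervals of low genes such as Prkdc and Atr limit what could be seen.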
